A study of Mus musculus with 44 samples.

Results

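The 35 genes described here encode subunits of respiratory complex I that are made from nuclear DNA. They were taken from a given list, and each symbol was matched to 1 of the 38202 Ensembl identifiers that name the genes in both deposited tables, without use of any measured value. RNA-Seq had been performed on liver and skeletal muscle of 22 male C57BL/6N mice, 11 wild-type (WT) and 11 littermates with a whole-body CRISPR/Cas9 deletion of Slc16a13 (KO). All of these mice had been fed a high-fat diet (HFD) for 15 weeks and were killed at 20 weeks of age after an overnight fast. Both tissues came from the same mice, which gave 4 groups of 11 libraries: WT liver, KO liver, WT muscle and muscle labelled KO. The deletion removes the promoter and the first exons of Slc16a13, a monocarboxylate transporter, in every tissue, so a difference in 1 tissue cannot be assigned to loss of the gene in that tissue.

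Complex I is the entry point of the mitochondrial respiratory chain. It takes electrons from NADH and passes them along a bound flavin and a row of iron-sulfur clusters to ubiquinone, and it pumps protons across the inner membrane. Its matrix arm holds the NADH-binding module and the quinone module, its membrane arm holds the proton pumps, and many accessory subunits surround this core. Core subunits of the membrane arm are encoded by mitochondrial DNA, so the enzyme needs both genomes. Liver and muscle are both rich in mitochondria, and in muscle the respiratory chain supplies the ATP for contraction.

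The libraries held between 20150712 and 35218243 counted reads. Slc16a13 had 99 to 302 reads in each WT liver and 0 to 8 in each KO liver. In muscle its count went against the label, with 4 to 22 reads in WT libraries and 11 to 40 in the libraries labelled KO (log2 fold change 0.64, edgeR adjusted p = 0.49), and the deposited count is one number per gene that does not show from which exons, deleted or not, its reads came. These are therefore called the muscle libraries labelled KO and no direction in muscle is assigned to the loss of the gene. All 8 hepatocyte markers were detected in every liver library and all 8 markers of skeletal muscle fibres in every muscle library. In 4 KO livers (mice 532, 583, 602 and 611) long genes had fewer reads relative to short genes than in every WT liver. When log2 CPM (the count scaled to the size of its library) of each gene, relative to the tissue mean, was regressed on its log2 length, the slope lay between -0.54 and -0.08 in these livers and between 0.039 and 0.096 in WT livers. The limit for a low slope was -0.017, the lowest WT slope less the width of the WT range. KO liver 587, at 0.038, lay just below the WT livers but above this limit. Counts and medians that rest on the 4 livers of low slope are given with and without them.

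All 35 subunits had reads in each of the 44 libraries, from 114 to 13793 per library, and all passed the filter on low counts in every comparison. Gene length was taken as the median length that the count and the RPKM of a gene imply together. By this measure the subunits are short, with a median of 661 bases against 2414 for the genes tested in liver, and 33 of the 35 were shorter than that value. Ndufs1, at 2707 bases, Ndufa11, at 2661, and Ndufa10, at 1909, were the longest. Ndufa3, at 347 bases, Ndufs5, at 352, and Ndufa5, at 384, were the shortest. The value for Ndufa11 is longer than its longest coding transcript in GENCODE vM21, which has 918 bases, so its RPKM is low for its reads. Reads of 85 bases cannot always separate a gene from a copy or a neighbour. Of the 35 genes, 21 shared no window of 85 bases with the transcripts of another gene. Ndufb4 shared 34.5% of its windows, with the pseudogenes Ndufb4c and Gm16056, and Ndufb6 shared 26.3%, with Smim27. Ndufa13 shared 24.9% with Tssk6, Ndufs3 24.3% with Gm12251 and Kbtbd4, Ndufa12 20.3% with Gm15920, Ndufb9 19% with Gm49356, and Ndufs5 14.2% with BC002163. The counts of these 7 genes are the less certain ones. The deposited RPKM values are labelled unique, so reads with several equal places may have been left out. The sources used here do not describe how such reads were counted, nor whether strand was used.

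Promoter windows from RefSeq (build GRCm38.p6, from 250 bases before to 50 after the start) were matched by symbol for 32 of the 35 genes, 34 windows in all, and Ndufs1, Ndufa2 and Ndufb9 had no entry. Each window was searched on both strands for letters that are typical of promoters of mitochondrial genes: GCGCANGCG for NRF1, a transcription factor of respiratory chain genes, CCGGAAG for the ETS family, to which GABP belongs, and AAGATGGCG for YY1. The NRF1 letters were in 9 of the 34 windows (26.5%, against 6.25% of all 32851 windows). The windows of Ndufa5 overlap and hold the same NRF1 site, so that site counts more than once. The YY1 letters were in 5 windows (14.7%, against 1.4%) and the ETS letters in 4 (11.8%, against 8.86%), and no match of one motif overlapped a match of another. At least 1 of the 3 was in 17 of the 34 windows, against 14.8% of all. Of the 18 windows of assembly factors, proteins that help to build complex I without staying in it, 61.1% held at least 1 of the 3, 22.2% the YY1 letters, 33.3% the ETS letters and 16.7% the NRF1 letters. A match describes the letters and does not show binding.

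The stretches around the NRF1 letters nearest to the start are shown for the 5 genes where they lie wholly within the 60 bases before it, so that the letters can be seen at their distance from the start. The capitals mark the match, on either strand of the gene, and the sequences read 5′ to 3′ along the gene.
Ndufa11 (chr17:56717693-56717721, plus strand): ctgcactgcgCGCATGCGCgcacgccttg
Ndufa5 (chr6:24527698-24527726, minus strand): tgtgtgagctGCGCAGGCGcaaatctacc
Ndufa8 (chr2:36049329-36049357, minus strand): tcgctggagaCGCATGCGCagatggtacc
Ndufb4 (chr16:37654372-37654400, minus strand): cctcatatccGCGCAGGCGcagatgtgcg
Ndufs6 (chr13:73328479-73328507, minus strand): gactgctgtgCGCCTGCGCcggcacttgg

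All 5 YY1 matches lay just after the start, with their first base between positions 23 and 36, and all read along the gene. They are shown because the match, in capitals, holds an ATG and sits at a like distance from the start in each gene.
Ndufa9 (chr6:126849097-126849125, minus strand): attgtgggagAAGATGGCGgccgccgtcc
Ndufc1 (chr3:51408915-51408943, minus strand): cctgcggaacAAGATGGCGccgtccgtag
Ndufs4 (chr13:114388045-114388069, minus strand): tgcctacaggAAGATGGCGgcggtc
Ndufs6 (chr13:73328433-73328459, minus strand): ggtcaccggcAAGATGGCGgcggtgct
Ndufs7 (chr10:80249463-80249491, plus strand): ggccgaggccAAGATGGCGgcgctggcgg

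The level of each subunit was compared per length, as the RPKM value that the authors deposited. In WT liver the highest levels were those of Ndufb9, an accessory subunit of the distal membrane arm (235.5 ± 11.4 RPKM, SD, n = 11), Ndufa3, of the proximal membrane arm (198 ± 11.5), and Ndufa7, of the matrix arm (184 ± 15.3). The lowest were those of Ndufb4 (13.8 ± 1.25), Ndufa11 (15.9 ± 1.23) and Ndufa12 (30.6 ± 2.53), and the highest member lay 17.04 times above the lowest. In WT muscle Ndufb8 (388 ± 29.2 RPKM), Ndufb9 (378 ± 36.8) and Ndufa3 (312 ± 23.7) were the highest, and Ndufb4 (28.9 ± 2.22), Ndufa11 (36.99 ± 3.36) and Ndufab1 (59.7 ± 7.20), the mitochondrial acyl carrier protein, were the lowest. Most neighbours in this order did not differ beyond their spread. In WT liver the RPKM ranges of the 11 mice did not overlap for 2 of the 34 pairs of neighbours, Ndufb9 over Ndufa3 and Ndufa12 over Ndufa11. In WT muscle they did not for 2 of the 34, Ndufab1 over Ndufa11 and Ndufa11 over Ndufb4, while Ndufb8 and Ndufb9 overlapped. The low places of Ndufb4 and Ndufa11 are those of a gene with shared windows and of a gene with an unusual implied length. The median member had 88.8 RPKM in WT liver and 144 in WT muscle. The order of the subunits was alike in both tissues, with a Spearman correlation of 0.80 across the 35 genes, which is a description since genes are not replicates and each tissue's values come from the same libraries. Ndufs7, a core subunit that carries an iron-sulfur cluster next to the quinone site, changed place the most, from position 23 in liver to position 5 in muscle. Ndufc1 moved from position 25 to 12 and Ndufv2 from 18 to 7, while Ndufa1 moved the other way, from 9 to 20. The same 3 members were lowest and the same 3 highest in KO as in WT liver, and likewise in muscle labelled KO and WT muscle.

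**Figure D1:**
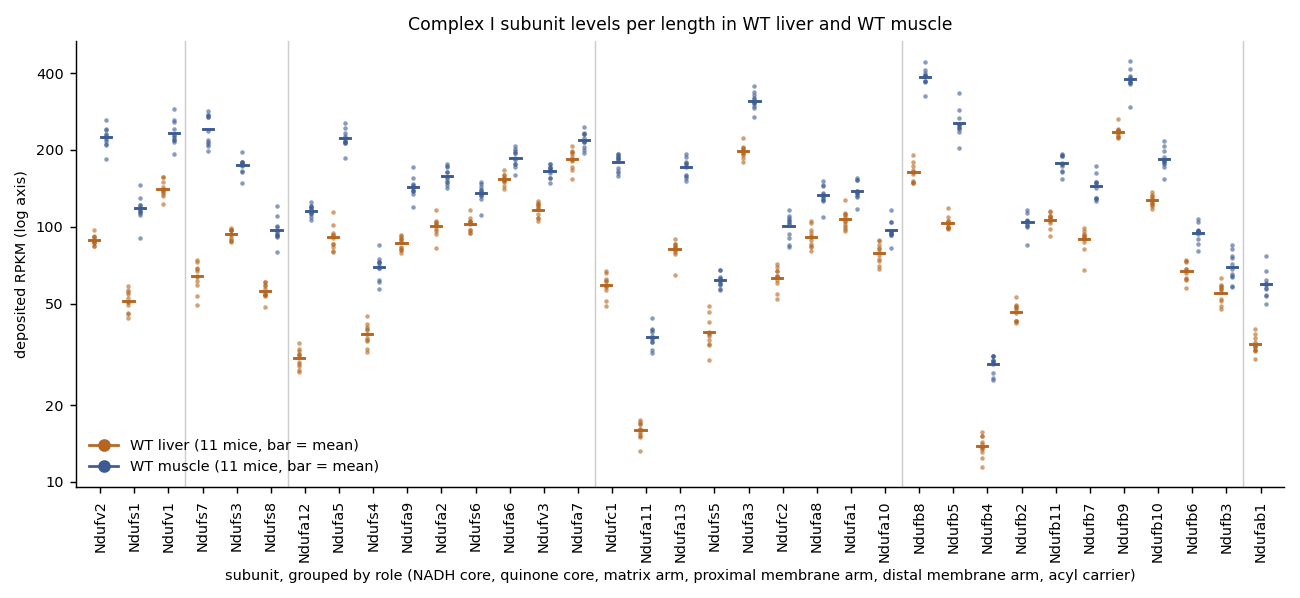
Deposited RPKM (log axis) of each of the 35 subunits in the 11 WT livers and 11 WT muscles, grouped by role, with each mouse as a point and the mean as a bar. Levels span 13.8 to 235.5 RPKM in liver and 28.9 to 388 in muscle, and every mean is higher in muscle.

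The first comparison asked how the subunits differ between tissues in WT mice. All 35 subunits were higher in muscle than in liver and passed the test (edgeR, adjusted over 13907 genes). In this comparison 45.5% of all tested genes were called higher in muscle and 45.5% higher in liver, so a single call says little. The members' median log2 fold change of liver over muscle was -0.68, against 0.0035 for all genes tested, and the members ranged from -1.89 to -0.22. The WT CPM ranges of the tissues did not overlap for 34 subunits and overlapped for Ndufa7. CPM was scaled within each tissue, and the share of all genes without overlap was not computed. This count therefore does not set the subunits apart from other genes. These are relative levels in bulk tissue, in which fewer cells of a type and less RNA per cell cannot be told apart.

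The difference was uneven within the complex. Ndufa12 (ENSMUSG00000020022), an accessory subunit of the matrix arm, had 16.2 to 19.7 CPM in WT liver (median 17.95) and 63.4 to 75.3 in WT muscle (median 70.6), a log2 fold change of -1.89 (SE 0.04, adjusted p = 1.2e-23). Ndufs7 (ENSMUSG00000020153) had 36.7 to 56.8 CPM in liver (median 49.1) and 142.6 to 214 in muscle (median 175.0), a log2 fold change of -1.89 (SE 0.08, adjusted p = 4.7e-17). For both genes the highest liver lay far below the lowest muscle, and RPKM was 3.78-fold higher in muscle for each. Ndufc1, a small subunit of the proximal membrane arm, followed with a log2 fold change of -1.63 (SE 0.04, adjusted p = 7.2e-22), and Ndufv2, an iron-sulfur protein of the NADH module, with -1.31 (SE 0.04, adjusted p = 2.2e-20).

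At the other end stood 4 accessory subunits whose levels differed little. Ndufa7 had 67.2 to 87.3 CPM in WT liver (median 80.4) and 83.4 to 107.7 in WT muscle (median 97.2), a log2 fold change of -0.22 (SE 0.05, adjusted p = 1.7e-04). Ndufv3 had a log2 fold change of -0.24 (SE 0.04, adjusted p = 4.1e-06), Ndufa6 of -0.25 (SE 0.04, adjusted p = 7.1e-06) and Ndufa10 of -0.26 (SE 0.05, adjusted p = 8.8e-06). Ndufv3 is the gene of these whose implied length also differed between tissues, with a median of 578 bases in liver and 495 in muscle. Per length, its RPKM was 1.41-fold higher in muscle, against 1.26-fold for Ndufb3, 1.29-fold for Ndufa1 and 1.32-fold for Ndufs6. The place of Ndufv3 among these 4 therefore holds for counts and not per length. By role, the median log2 fold change was -1.18 for the 3 core genes of the NADH module (Ndufv1, Ndufv2 and Ndufs1) and -0.88 for the 3 of the quinone module (Ndufs3, Ndufs7 and Ndufs8). It was -0.63 for the 9 accessory subunits of the matrix arm, -0.63 for the 9 of the proximal membrane arm and -0.68 for the 10 of the distal membrane arm. Ndufab1 had -0.65.

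**Figure D2:**
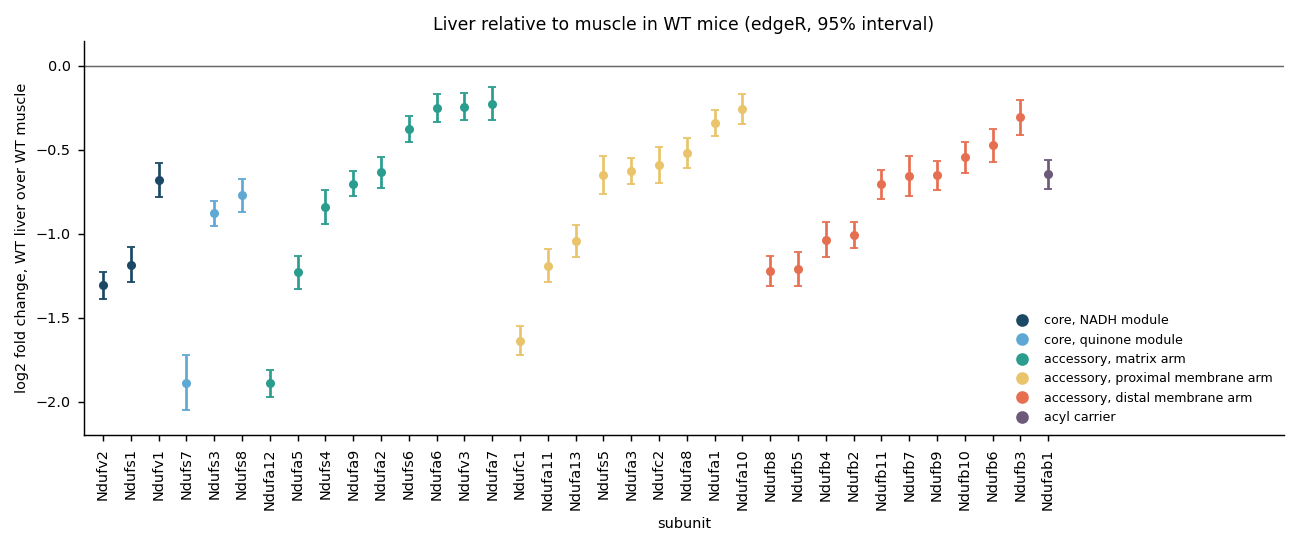
Log2 fold change of WT liver over WT muscle for each subunit with its 95% interval (edgeR), grouped and coloured by role. All 35 values are below 0, from -1.89 for Ndufa12 and Ndufs7 to -0.22 for Ndufa7.

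Other genes of the enzyme did not all follow. Of 18 assembly factors tested, 6 were higher in muscle and 7 higher in liver. The 2 of smallest p went opposite ways: Ndufaf5, which modifies Ndufs7 during assembly, had a log2 fold change of -2.90 (SE 0.05, adjusted p = 1.3e-25), and Nubpl, which delivers iron-sulfur clusters, had 1.36 (SE 0.05, adjusted p = 3.1e-18). All 5 mitochondrially encoded subunits tested were higher in muscle, with a median of -0.95. With gene length removed, the members' median was -1.05 and that of all genes -0.19, and 35 of 35 were called higher in muscle, against 50.3% of all genes. In the mice labelled KO, 20 of the 35 were called higher in muscle, against 42.8% of all genes, with a median of -0.37, and 7 members had a positive log2 fold change, none of them called. Without the 4 mice whose liver library had a low slope, 35 of 35 were called higher in muscle, against 43.9% of all genes, with a median of -0.65.

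The second comparison asked whether the deletion changed the subunits in liver. No subunit passed the test: 0 of 35 were called after adjustment over 13005 genes (edgeR, smallest adjusted p = 0.38), where 0.0231% of all genes were called. The means of 34 subunits were higher in KO mice, against 48.9% of all genes, and Ndufs1 alone was lower. The members' median log2 fold change was 0.31, against -0.0054 for all genes. At an unadjusted p under 0.05, 19 were higher, against 9.78% of all genes, and 1 was lower, against 3.1%. DESeq2 gave 28 at that threshold in either direction, against 15.1% of all genes. limma-voom gave 4, against 12.7% of all genes, which is near the background. Neither called any member after adjustment. These members share libraries and move together, so the counts are not separate pieces of evidence.

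The members of smallest p were these. Ndufa3 had 60.6 to 71.6 CPM in WT livers (median 67.8) and 64.9 to 156 in KO livers (median 70.4), a log2 fold change of 0.40 (SE 0.15, adjusted p = 0.38). Ndufb9 (ENSMUSG00000022354) had 143 to 159 CPM in WT livers (median 149.6) and 144 to 319 in KO livers (median 159), a log2 fold change of 0.36 (SE 0.13, adjusted p = 0.38). For both genes the KO median lay within the WT range and a few KO livers stood far above it. Ndufb5, Ndufb10 and Ndufv3 followed with log2 fold changes of 0.36, 0.39 and 0.37 (SE 0.14, 0.16 and 0.15), each with an adjusted p of 0.38, and Ndufa2, a small matrix-arm subunit, had the largest value, 0.45 (SE 0.21). Ndufs1 (ENSMUSG00000025968), the iron-sulfur protein that carries several clusters of the NADH module and the longest gene of the list, had 119 to 147 CPM in WT livers (median 137) and 92.6 to 140.5 in KO livers (median 126), a log2 fold change of -0.13 (SE 0.06, adjusted p = 0.38).

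The higher values lay in the 4 KO livers of low slope. In mouse 532, 34 of 35 subunits were above the WT mean, with a median difference of 1.06 on the log2 scale and values from -0.54 (Ndufs1) to 1.67 (Ndufa2). In mouse 602, 34 were above it, with a median of 1.05, from -0.28 (Ndufs1) to 1.40 (Ndufa2). Mouse 583 had 34 above it with a median of 0.53, and mouse 611 had 33 above it with a median of 0.17. The subunits took 0.454%, 0.397%, 0.312% and 0.263% of all reads in mice 532, 602, 583 and 611, against 0.220% to 0.265% in WT livers. In the other 7 KO livers the median difference was between -0.12 and 0.0050, and 6 of the 7 had more members below than above the WT mean. All 4 livers of low slope lay above the WT range for 23 subunits, while the median of the other 7 was within it for 35 of 35. The share of all genes, or of other short genes, above the WT range was not computed. These counts therefore do not set the subunits apart from other genes. The WT and KO ranges overlapped for every subunit.

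**Figure D3:**
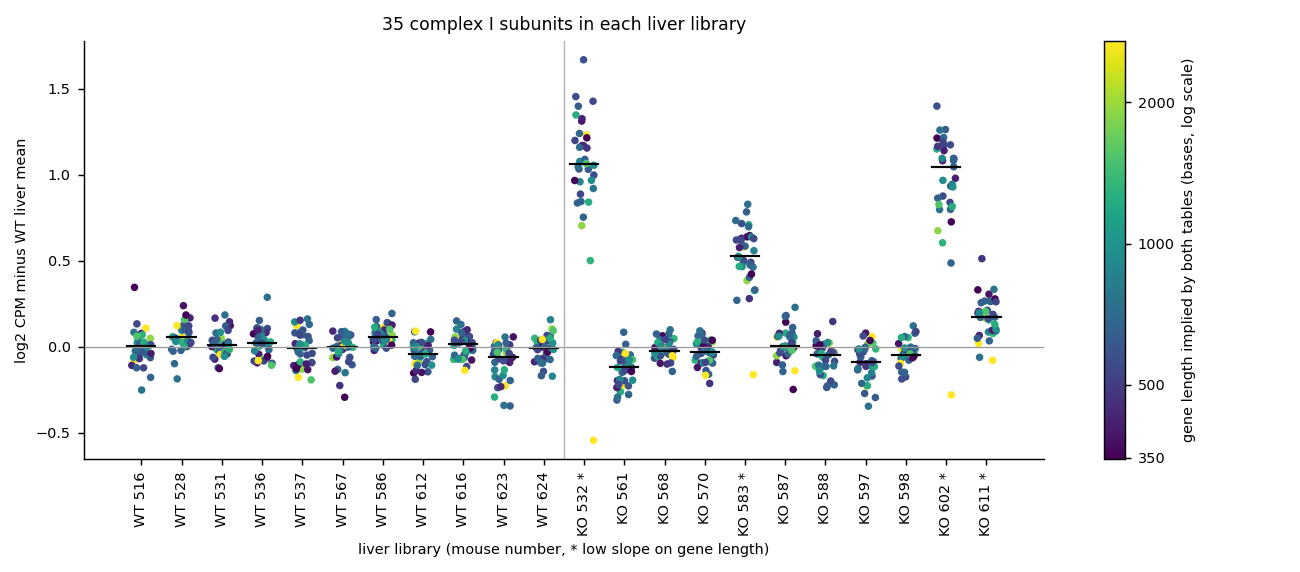
Difference of each subunit from its WT liver mean (log2 CPM, y axis) in each of the 22 liver libraries, with a point for each of the 35 subunits coloured by gene length, a bar at the median, and a star at the 4 libraries of low slope. The medians of mice 532, 602, 583 and 611 are 1.06, 1.05, 0.53 and 0.17, and Ndufs1 is the lowest point in each.

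Gene length went along with these values. Across the 35 subunits the liver log2 fold change correlated with log2 gene length at r = -0.52, a description over genes that share the same libraries. The 28 subunits of up to 1000 bases had a median log2 fold change of 0.31 and the 7 longer ones 0.23. Ndufa11 had 0.32 (SE 0.16) at an implied length of 2661 bases, while its longest coding transcript has 918 bases. Its place against length is therefore uncertain. When gene length was removed from every library by a loess curve, the members' median was 0.074, against 0.025 for all genes. In that fit 27 of 35 were higher, against 57.6% of all genes. An unadjusted p under 0.05 (edgeR) was found for 3, against 9.28% of all genes: Ndufa11, Ndufa3 and Ndufb9. The value of Ndufa11 in this fit rests on its implied length. Without the 4 livers the median was -0.046, and 33 of 35 were lower, where 50.3% of all genes were higher. Ndufa6, Ndufb6, Ndufc2 and Ndufs6 had an unadjusted p under 0.05 (edgeR, against 2.96% of all genes), all lower, none after adjustment. With both changes the median was -0.018, and 1 member had an unadjusted p under 0.05, against 2.68% of all genes. With GC content removed instead the median was 0.29. Of the other measures, only the summed level of red blood cell markers lay beyond the WT range in all 4 livers. The slope of log2 CPM on GC content was 0.49, 0.36 and 0.28 in mice 532, 602 and 583 and -0.04 in mouse 611, against -0.19 to 0.04 in WT livers. The summed level of 4 red blood cell markers was 367 to 456 CPM in the 4 livers, against 189 to 265 in the other KO livers and 214 to 316 in WT livers, and that of 5 macrophage markers 291 to 602 CPM against 214 to 343 and 239 to 310. Hepatocyte markers summed to 105842 to 113506 CPM in the 4 livers, against 94703 to 112453 and 85153 to 113029. That sum is mostly Alb, and single markers went opposite ways. The lowest KO liver had 2572 CPM of Apob and 1163 of Cps1, against WT minima of 6576 and 2221. The highest had 12548 CPM of Apoa1 and 10591 of Ttr, against WT maxima of 8418 and 6603. Single markers were not split between the 4 livers and the others, and gene length was not removed from the sums. No marker of these 3 lists was at 0 in a liver library. The part of any of these in the result was not tested.

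**Figure D4:**
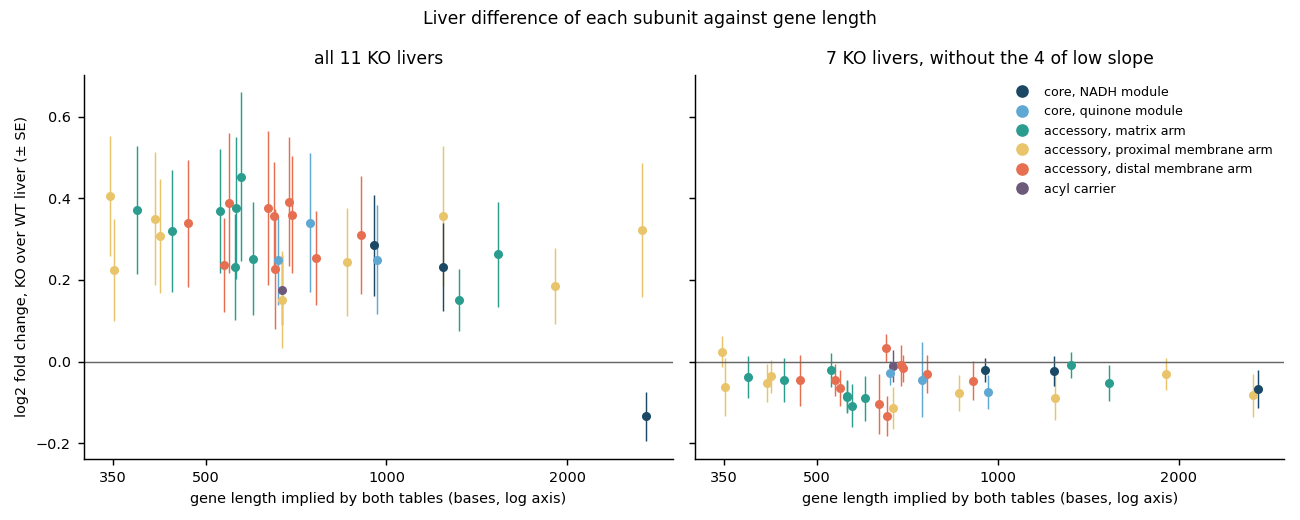
Liver log2 fold change of KO over WT (with SE) against the gene length implied by both tables (log axis), for all 11 KO livers on the left and for the 7 without low slope on the right, coloured by role. The members' median is 0.31 on the left and -0.046 on the right.

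By role, the liver values differed little: the median log2 fold change was 0.35 for the 10 distal membrane arm subunits, 7 of them with an unadjusted p under 0.05, 0.32 for the 9 accessory subunits of the matrix arm (5), 0.31 for the 9 of the proximal membrane arm (4), 0.25 for the quinone module (1 of 3) and 0.23 for the NADH module, where Ndufv1 and Ndufv2 were higher and Ndufs1 lower at that threshold. Without the 4 livers of low slope the median of each role was below 0, at -0.046 for the distal and -0.062 for the proximal membrane arm, -0.053 for the matrix arm, -0.044 for the quinone module and -0.023 for the NADH module, and 0 members were higher at that threshold. Of the 18 assembly factors, 0 were called, and 4 were higher and 1 lower at an unadjusted p under 0.05. The 2 of smallest p were Acad9, with a log2 fold change of -0.14 (SE 0.06), and Timmdc1, with 0.18 (SE 0.08). Without the 4 livers these were -0.12 (SE 0.06) and 0.027 (SE 0.05), and 0 assembly factors were higher and 1, Ndufaf5, was lower at an unadjusted p under 0.05. Of the 5 mitochondrially encoded subunits, 0 passed at either threshold, with or without these livers.

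In muscle, the third comparison, no subunit passed the test either. Of the 35, 0 were called over 13266 genes (edgeR, smallest adjusted p = 0.51), where 0.00754% of all genes were called. The members' median log2 fold change of labelled KO over WT was -0.060, against 0.0078 for all genes. A lower mean was found for 33 members, where 53.7% of all genes had a higher one. At an unadjusted p under 0.05, 6 were lower, against 4.88% of all genes, and 0 were higher, against 3.76%. DESeq2 and limma-voom each gave 6 at that threshold, against 8.21% and 8.03% of all genes in either direction.

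The largest of these values was that of Ndufs7, with 142.6 to 214 CPM in WT muscle (median 175.0) and 129 to 188 in muscle labelled KO (median 150.0), a log2 fold change of -0.24 (SE 0.08, adjusted p = 0.51). Ndufs7 was the lowest of the 35 members, relative to WT, in 7 of the 11 libraries labelled KO and in 3 of the 11 WT libraries, and the ranges overlapped. Ndufb7, a distal membrane arm subunit, had 76.7 to 106 CPM in WT muscle (median 91.0) and 73.8 to 93.4 in muscle labelled KO (median 84.5), a log2 fold change of -0.15 (SE 0.06, adjusted p = 0.51). Ndufa13, also known as GRIM-19, had 186 to 235.5 CPM in WT muscle (median 215) and 169 to 224 in muscle labelled KO (median 195), a log2 fold change of -0.12 (SE 0.05, adjusted p = 0.52). Ndufa7 had -0.11 (SE 0.05), Ndufa11 -0.12 (SE 0.05) and Ndufa2 -0.12 (SE 0.05), each with an adjusted p of 0.53. Ndufb4 and Ndufab1 were the members whose mean was not lower, at 0.058 (SE 0.05) and 0.0071 (SE 0.06). By role, 1 of the 3 quinone module genes, 2 of the 9 accessory subunits of the matrix arm, 2 of the 9 of the proximal and 1 of the 10 of the distal membrane arm were lower at that threshold, and 0 of the 3 of the NADH module.

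In muscle the values went along with GC content more than with length. Across the 35 subunits the muscle log2 fold change correlated with GC content at r = -0.61 and with log2 length at -0.17, as descriptions over genes of the same libraries. The subunits are slightly rich in GC, with a median of 52.5% against 50.4% for the genes tested in muscle, and Ndufs7 at 60.7% has the highest value of the list. The slope of log2 CPM on GC content was between -0.05 and 0.10 in WT muscles and between -0.13 and 0.05 in those labelled KO. With GC content removed, 3 members had an unadjusted p under 0.05, against 4.73% of all genes, the log2 fold change of Ndufs7 was -0.14 (SE 0.07), and the median was -0.070. The smallest adjusted p was then 0.93 (edgeR).

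**Figure D5:**
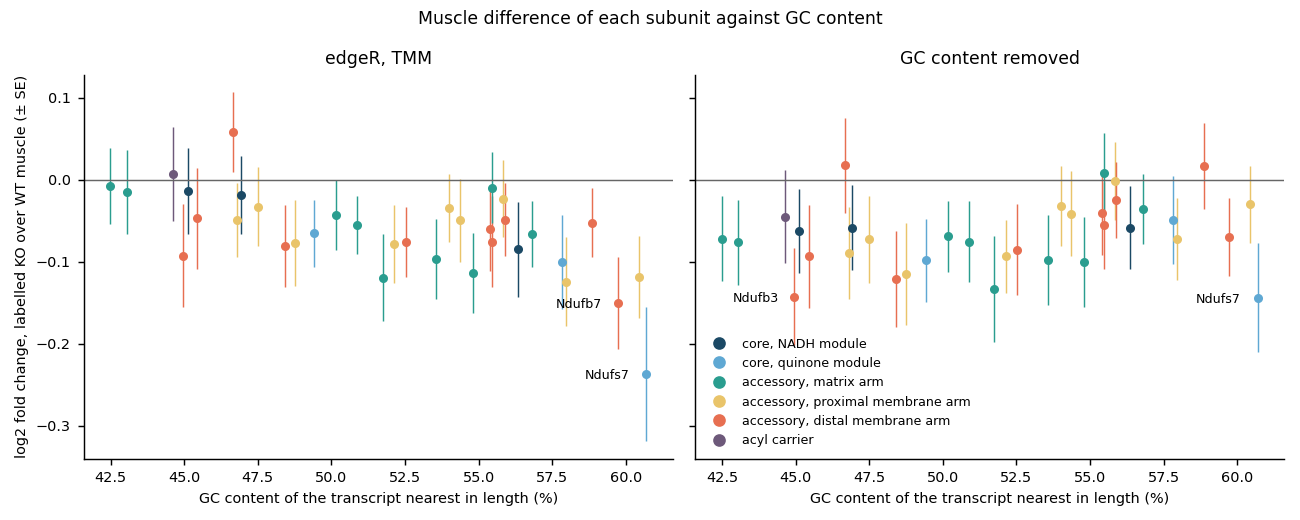
Muscle log2 fold change of labelled KO over WT (with SE) against the GC content of the transcript nearest in length, from the edgeR fit on the left and with GC content removed on the right, coloured by role, with the 2 members of smallest p named in each. Ndufs7 lies at -0.24 on the left and -0.14 on the right.

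Muscle libraries differed from each other more than the groups did. Relative to WT, the median of the 35 members ranged from -0.18 in WT mouse 528, where all 35 were lower, to 0.16 in WT mouse 624, where 34 were higher. Among the libraries labelled KO it ranged from -0.16 in mouse 570, where all 35 were lower, to 0.13 in mouse 611, where 30 were higher. The summed level of the 8 markers of skeletal muscle fibres was highest in mouse 528, at 193107 CPM, and lower in mice 624 and 611, at 151295 and 141359 CPM. Markers of slow fibres summed to 0.16 to 156 CPM in WT and 0.26 to 11.95 in labelled KO muscle, with mouse 531 the highest, and Myh7, which defines slow fibres, was at 0 in 1 library of each group. Adipocyte markers summed to 89.1 to 399 CPM in WT and 126 to 910 in labelled KO muscle, and hepatocyte markers to 5.06 to 41.6 and 13.5 to 167. The hepatocyte sum in muscle was mostly Pck1, with 4.72 to 40.4 CPM in WT and 9.77 to 165 in labelled KO muscle. Alb reached at most 4.32 and 5.55 CPM, and every other hepatocyte marker was at 0 in some muscle libraries of each group. This sum therefore does not show hepatocyte RNA in muscle. Without the 3 muscle libraries richest in slow fibre, adipocyte or hepatocyte markers (mice 531, 561 and 611) the members' median was -0.062. Of the members, 4 then had an unadjusted p under 0.05 (edgeR), against 8.18% of all genes. Of the 18 assembly factors 0 were called and 3 were lower at an unadjusted p under 0.05, with Ndufaf8 (-0.28, SE 0.09) and Ndufaf3 (-0.14, SE 0.06) the 2 of smallest p.

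The difference between both genotype comparisons was tested as an interaction over all 44 libraries and 14739 genes. Again 0 of 35 members were called (edgeR, smallest adjusted p = 0.28), where 0.00678% of all genes were called. The median of the interaction was 0.36 on the log2 scale, 28 members had an unadjusted p under 0.05 (against 16.2% of all genes), and all 28 were positive, that is, higher in KO relative to WT in liver than in muscle. The members of smallest p were Ndufs7 (0.59, SE 0.20), Ndufb9 (0.43, SE 0.15), Ndufb10 (0.48, SE 0.17), Ndufv3 (0.45, SE 0.16) and Ndufa3 (0.44, SE 0.16), each with an adjusted p of 0.28 in edgeR. The interaction of all genes had a median of -0.027. With the mouse as a block, 16 members had an unadjusted p under 0.05, against 15.3% of all genes, and the median was 0.28. Without the 4 livers of low slope, 0 members did so, against 4.8% of all genes, and the median was 0.010. With the block and without both tissues of these 4 mice, 1 member did so, against 4.02% of all genes, and the median was 0.034.

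How much the subunits varied among mice of a group also differed between tissues. In WT liver the coefficient of variation of CPM was largest for Ndufs7 (13.5%, counting error 2.92%), Ndufs5 (12.04%, counting error 5.49%) and Ndufb7 (9.61%, counting error 2.67%). In WT muscle it was largest for Ndufs7 (14.8%, counting error 1.47%), Ndufb5 (11.2%) and Ndufb3 (10.9%). Ndufs3 varied the least in WT liver, at 2.01%, below its counting error of 2.55%, so its spread there is that of the counts. Members of WT liver moved together weakly and those of WT muscle strongly: over the 595 pairs of members, the median correlation across 11 mice was 0.19 in WT liver and 0.74 in WT muscle, and 0.73 in muscle labelled KO. In KO liver it was 0.98, with the 4 livers of low slope among the 11, and Ndufs1 ran against the mean of the others at r = -0.87. Without these it was 0.28 across the 7 other KO livers, with Ndufs1 at -0.65. These correlations are descriptions, since the members share libraries, and the mean over pairs of all genes tested was between 0.00033 and 0.0021 in the 4 groups of 11.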

How the data were processed

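RNA-Seq of poly(A) RNA was analysed in 44 libraries (85-base single-end reads, stranded kit) of liver and muscle. Groups and mouse numbers came from the labels. The members and lists were chosen with earlier results of these data known. The authors deposited raw read counts per gene (not normalized) and RPKM values, scaled by the authors to length and library size. The aligner, the counting program, the build and the annotation are not given in the sources used here. Libraries were sequenced in pools, and since the pool of a library is not named, pool and group cannot be told apart.

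Counts were fitted in R 4.3.3 with edgeR 4.0.16 (TMM, filterByExpr, quasi-likelihood F-test, two-sided, Benjamini-Hochberg over all genes, threshold 0.05), by tissue, for WT liver against WT muscle, and for the interaction. log2 CPM values used a prior count of 2. The implied gene length is count over RPKM and total, as the median over libraries. Since 46.0 percent of values with enough reads lay over 1 percent away from that median, it is no fixed length. Alternatives were DESeq2 1.42.0, limma-voom 3.58.1, other filters and scalings, a loess (span 0.3) on gene length or GC content, the RPKM table with pseudocounts 0.1 and 1, the mouse as a block, and libraries left out. Removal of GC content, of libraries rich in other markers, and of mice of low slope from the tissue comparison and from the blocked interaction, and the correlations in KO liver without the livers of low slope, were chosen after seeing the data. The pairing rests on the animal number in the labels. The deviations of the 22 pairs of tissues correlated at 0.10 on average (-0.03 to 0.26), against -0.01 between other mice. No 2 libraries held identical counts. The fit was tested on simulated data.

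All 35 members were named by role. Full statistics were given for the 5 of smallest p in each genotype comparison and the interaction, the 4 highest and 4 lowest tissue ratios, the 3 highest and lowest RPKM, the 3 largest coefficients of variation and the 3 longest and shortest. Ndufs1, Ndufa2, Ndufab1, Ndufb4 and Ndufs3, other members past an unadjusted p of 0.05 and single mice were singled out after their values were seen. Total counts of 20150712 to 35218243 per library limit the precision, and counting error covers reads only.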

Additional observations from a re-analysis of the deposited data

Results flagged for a closer look

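The difference between liver and muscle in the change of Slc16a13, the gene deleted in these mice, passed the test. The interaction was -6.08 on the log2 scale (edgeR, adjusted p = 5.9e-16). Reads numbered 99 to 302 in WT livers and 0 to 8 in KO livers, against 4 to 22 in WT muscle and 11 to 40 in muscle labelled KO. With so few reads in WT muscle, a fall like that in liver could not be seen there. The interaction therefore does not show that the deletion differs between tissues. No complex I subunit passed the interaction test.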

How the results depend on the processing

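No call of a member in liver, muscle or the interaction was gained under any setting tried. In liver, members with an unadjusted p under 0.05 numbered 3 with gene length removed, 6 with library size alone, 4 with limma-voom, 3 with RPKM and either pseudocount, 4 without the livers of low slope and 1 with both of these, against 20. The shares of all genes at that threshold were 9.28%, 10.8%, 12.7%, 17.1% (both), 2.96% and 2.68% in the same order, and the median log2 fold change of the 35 members was 0.074, 0.23, 0.23, 0.18 (both), -0.046 and -0.018. The direction of the median reversed without the livers of low slope, where Ndufb5 had -0.016, Ndufb10 -0.0084 and Ndufv3 -0.020. Leaving out 1 library gave 3 to 30 members and medians of 0.21 to 0.34. The count was 3 without KO mouse 532 or 602, 9 without KO mouse 583, 12 without WT mouse 516 or 623 and 13 without WT mouse 537. The background moved too. Of all genes, 856 of 13061 passed that threshold without KO mouse 602 and 2547 of 13038 without KO mouse 597, the lowest and highest numbers. In muscle, GC content removed gave 3 members (against 4.73% of all genes) where the main fit gave 6. Leaving out 1 library gave 2 (WT 536 or 624) to 13 (labelled KO 611), with medians of -0.08 to -0.05. It gave 12 without WT 528, 10 without labelled KO 587 or WT 586, and 3 without labelled KO 561 or 597 or WT 537. Of all genes, 869 of 13329 passed that threshold without WT 536 and 1429 of 13321 without labelled KO 587, the lowest and highest numbers. In the interaction, members with an unadjusted p under 0.05 numbered 13 with library size alone, 16 with the replicate block, 1 with the block and without the mice of low slope, and 0 without the livers of low slope, with medians of 0.25, 0.28, 0.034 and 0.010, against 15.9%, 15.3%, 4.02% and 4.8% of all genes. In the tissue comparison the median was -1.05 with gene length removed and -0.67 with the replicate block, which changed no call there. Leaving out 1 mouse gave 35 called members each time and medians of -0.71 to -0.65. In the mice labelled KO 20 were called, with a median of -0.37, and Ndufa10 (0.020), Ndufa6 (0.094), Ndufv3 (0.21) and Ndufa7 (0.23) reversed, as 4 of the 8 members followed across settings. Of all 35, 7 were positive there. The cause was not tested. Levels per length kept Ndufb9 and Ndufb8 highest when CPM was divided by the implied length. That length was itself derived from count and RPKM, so this is not a separate check of the order.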
